A study of Mus musculus with 6 samples.

Results

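Genes whose products write, erase or depend on acetyl and methyl marks of histones, together with the enzymes of DNA methylation, were examined in Sox17-GOF (gain of function) and control islets. Sox17 is a transcription factor known for its part in forming endoderm. The genes were taken by symbol, and this choice was made with earlier results of these data known. They were Hdac genes, Sirt1 to Sirt7, Kat2 to Kat8, Kmt2 and Kmt5, Setd, Prdm and Kdm1 to Kdm8. Dnmt1, Dnmt3 and Tet1 to Tet3 were also taken. This gave 81 of the 19937 genes that the arrays measured with a probe set of a single symbol. Of these, 80 were protein-coding and 1, Dnmt3aos, was an RNA antisense to Dnmt3a. RNA of whole islets was amplified and hybridised to Affymetrix Mouse Gene 1.0 ST arrays, with 1 array for each sample. The genotype of the 3 Sox17-GOF samples was Ins2-rtTA;tetO-Sox17, so that insulin-producing cells make Sox17 once doxycycline is given, and that of the 3 control samples, by their labels, was Ins2-rtTA. All mice were 16 weeks old, male by the methods, labelled C57BL/6 after backcrossing from an outbred stock over at least 3 generations, and had received doxycycline for 24 hours. The methods call the samples of a genotype independent biological replicates. The Ins2 promoter is not active in the other islet cell types, whose RNA is also on every array.

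Histone acetyltransferases add acetyl groups to lysines and so loosen chromatin, and deacetylases, among them the NAD-dependent sirtuins, remove them. Methyltransferases with a SET domain and demethylases of the KDM family add and remove methyl marks that go with active or with silent genes, and DNA methyltransferases and TET dioxygenases write and oxidise 5-methylcytosine. In β cells these enzymes are known for helping to fix cell identity. Dnmt3a, for example, silences genes of the immature state in mouse β cells.

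The arrays gave RMA values on the log2 scale, in which a difference of 1 is a 2-fold change, and array medians lay between 6.31 and 6.41 in Sox17-GOF and between 6.35 and 6.38 in control islets. Sox17 was higher on every Sox17-GOF array (6.35, 6.22 and 6.36, against 5.50, 5.72 and 5.71 in controls), with a log2 fold change of 0.67 (standard error, SE, 0.09, adjusted p = 0.00876 by limma). Of 10 listed β cell markers, 5 were lower in Sox17-GOF islets (G6pc2, Pdx1, Slc2a2, Slc30a8 and Ucn3) and none was higher. These are 50% of the list, while 2.44% of all genes were lower at the same threshold (adjusted p under 0.05 by limma). The mean log2 signal of the list was between 10.78 and 10.91 on Sox17-GOF arrays and 11.28 and 11.29 on control arrays. Only Slc2a2 and Ucn3 among these 5 still passed in every set of 5 arrays. Pdx1 passed in none of them, and the count was 2 without Sox17-GOF replicate 1 and also without control replicates 1 or 2, and 3 without Sox17-GOF replicate 2 and also without control replicate 3. The other 5 markers did not pass, with log2 fold changes of -0.01 for Ins2, -0.01 for Mafa, -0.09 for Iapp, -0.17 for Nkx6-1 and -0.35 for Chga. The drop in the list mean thus came from part of the list. Fewer cells of a type and less RNA per cell cannot be told apart in such samples. The list mean of stellate and fibroblast markers ran from 6.76 to 7.41 on Sox17-GOF arrays and from 6.40 to 6.88 on control arrays, and that of duct markers from 7.82 to 8.55 on Sox17-GOF arrays and from 7.79 to 7.95 on control arrays, both highest on Sox17-GOF replicate 3. Of the 7 duct markers 5 had positive log2 fold changes and 2 negative. They reached from -0.34 for Krt7 to 1.32 for Krt19, which read 9.13 on Sox17-GOF replicate 3. The part of the shifts in list means in the values below was not tested.

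Hdac6, Kdm7a and Dnmt3a were lower in Sox17-GOF islets, and no other gene of the 81 passed an adjusted p of 0.05. These 3 calls are 3.70% of the genes examined, while 5.21% of all genes represented in the same way passed. Over both directions together, the share of calls was thus no higher than the background. By direction, 3.70% were lower, against 2.44% of all genes, and none was higher, against 2.77%. Over single probe sets 4.93% passed (2.32% lower and 2.61% higher). At the thresholds of the study's methods, 1.3-fold with an unadjusted p, 5 of the 81 passed, all of them lower, and 7.42% of all genes did. At an unadjusted p under 0.05, which 19.7% of all genes passed, 16 of the 81 were lower (19.8%, against 10.7% of all genes) and 4 were higher (4.94%, against 8.93%). Together these are 20 genes, and 11 without control replicate 1, 12 without control replicate 2 and 13 with median centring. The median log2 fold change was -0.09, with 51 of 81 values below 0 (63.0%), while that of all genes was -0.01, with 52.9% below 0. The groups did not overlap for 27 of the 81, while 25.5% of all genes had groups apart. Sox17-GOF values were the lower ones for 22 (27.2%, against 14.2% of all genes) and the higher ones for 5 (6.17%, against 11.3%). The changes were small. Only 5 of the 81 (6.17%) differed by more than 1.3-fold, against 10.2% of all genes, and none by 2-fold. The 3 calls did not all last when an array was left out: 0 remained without control replicate 2, 1 without control replicate 1 (Kdm7a), control replicate 3 or Sox17-GOF replicate 2 (Hdac6 in both), 2 without Sox17-GOF replicate 1 (Hdac6 and Kdm7a), and 3 without Sox17-GOF replicate 3, with Kmt5a in place of Dnmt3a.

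**Figure D1:**
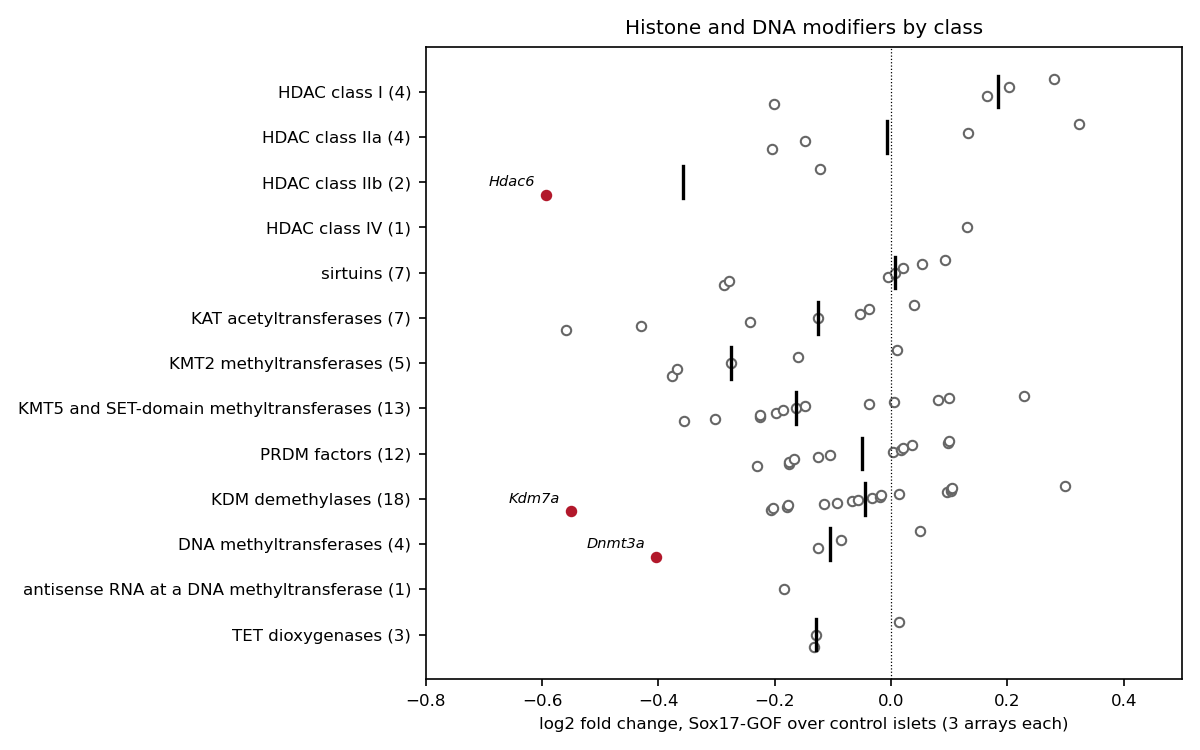
Log2 fold changes in Sox17-GOF over control islets (3 arrays each) of the 81 genes, in rows by class with the number of genes in brackets. A circle stands for 1 gene, in red if it passed an adjusted p of 0.05 in limma, and black bars are class medians. Hdac6, Kdm7a and Dnmt3a are the filled circles and all lie below 0, and the KMT2 median (-0.28) lies further below 0 than those of the other classes with at least 3 genes.

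Hdac6 encodes a mainly cytoplasmic deacetylase of class IIb that removes acetyl groups from α-tubulin and other non-histone proteins and carries a zinc finger that binds ubiquitin. Its log2 signal was 7.33, 7.29 and 7.26 in Sox17-GOF islets, against 7.88, 8.03 and 7.74 in control islets. The Sox17-GOF arrays differed among themselves by less than the control arrays, and the groups did not overlap. Hdac6 was 1.51-fold lower (log2 fold change -0.59, SE 0.09, 95% interval -0.81 to -0.38, adjusted p = 0.0134 by limma). The exact permutation test over the 6 arrays gave a two-sided p = 0.10, and with 3 arrays against 3 it can give none smaller. The adjusted p was 0.0575 without control replicate 1 and 0.0540 without control replicate 2. The study also assayed Hdac6 by qRTPCR, whose values are not used here. The primer pair listed for it is shown so that this second assay can be placed, and the transcript positions of the primers were not matched here.
Hdac6 primer 1: gggtctccaaggagggaat
Hdac6 primer 2: cttgctggtggccgtattat

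The other class IIb enzyme, Hdac10, a polyamine deacetylase, had log2 signals of 6.35, 6.46 and 6.61 in Sox17-GOF islets, against 6.69, 6.67 and 6.43 in control islets. The groups overlapped (log2 fold change -0.12, 95% interval -0.37 to 0.12). Of 10 measured genes of tubulin acetylation and of HDAC6 partners, 5 had negative and 5 positive values, with a median log2 fold change of -0.04. Of these, none was lower and 1 was higher (10%, against 2.77% of all genes). This was Bag3, a co-chaperone that carries misfolded proteins to autophagy (7.89, 8.18 and 8.01 in Sox17-GOF islets, against 7.48, 7.42 and 7.67 in control islets). Its log2 fold change was 0.50 (SE 0.11, adjusted p = 0.0391), and the call ended without any array but Sox17-GOF replicate 1 (adjusted p up to 0.145). Atat1, the acetyltransferase that acts on α-tubulin, had a log2 fold change of 0.09 (SE 0.12), and Cttn, an actin-binding substrate of HDAC6, of 0.01 (SE 0.14).

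Among class I deacetylases, the nuclear catalytic subunits of co-repressor complexes, no gene passed. Hdac2, a catalytic subunit of the SIN3, NuRD and CoREST complexes, stood at 11.54, 11.59 and 11.54 in Sox17-GOF islets, against 11.40, 11.41 and 11.37 in control islets. These groups did not overlap, but the log2 fold change of 0.16 did not pass (SE 0.07, adjusted p = 0.250). Its close relative Hdac1 had log2 signals of 10.16, 9.69 and 9.88 in Sox17-GOF islets, against 10.23, 10.08 and 10.02 in control islets (log2 fold change -0.20, 95% interval -0.50 to 0.10). Hdac3, the deacetylase of NCoR complexes, was at 7.98, 7.62 and 7.41 in Sox17-GOF islets, against 7.33, 7.35 and 7.50 in control islets. Sox17-GOF replicate 1 was the highest value and replicate 3 lay among the controls (log2 fold change 0.28, 95% interval -0.05 to 0.61). Hdac8, which acts on cohesin, was at 7.11, 7.21 and 6.95 in Sox17-GOF islets, against 6.83, 6.90 and 6.94 in control islets, without overlap (log2 fold change 0.20, adjusted p = 0.277).

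Class IIa deacetylases shuttle between nucleus and cytoplasm and have little catalytic activity of their own. Hdac9 had log2 signals of 9.09, 8.87 and 8.68 in Sox17-GOF islets, against 8.41, 8.57 and 8.70 in control islets. Sox17-GOF replicate 3 lay below the highest control, so the groups overlapped (log2 fold change 0.32, SE 0.13, adjusted p = 0.221). Hdac4 was at 7.33, 7.09 and 7.20 in Sox17-GOF islets, against 7.46, 7.38 and 7.38 in control islets (log2 fold change -0.20, adjusted p = 0.253), and a second probe set gave 0.02. Hdac5 was at 7.87, 7.75 and 7.70 in Sox17-GOF islets, against 7.87, 7.95 and 7.94 in control islets (log2 fold change -0.15), and Hdac7 had a log2 fold change of 0.13. Hdac11, the only class IV enzyme, which removes fatty acyl groups, was at 6.58, 6.69 and 6.60 in Sox17-GOF islets, against 6.52, 6.44 and 6.52 in control islets, without overlap (log2 fold change 0.13, adjusted p = 0.404).

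Kdm7a encodes a JmjC demethylase that removes silencing methyl marks from histone H3. Its log2 signal was 8.80, 8.68 and 8.79 in Sox17-GOF islets, against 9.21, 9.27 and 9.45 in control islets, with a wide gap between the groups. Kdm7a was 1.47-fold lower (log2 fold change -0.55, SE 0.09, 95% interval -0.76 to -0.34, adjusted p = 0.0156 by limma). Its call ended without control replicate 2 (adjusted p = 0.0644), control replicate 3 (0.0514) or Sox17-GOF replicate 2 (0.0562). A second probe set of Kdm7a read 8.21, 8.76 and 8.58 in Sox17-GOF islets, against 9.07, 8.76 and 9.31 in control islets. Its log2 fold change was close to that of the first (-0.54), with more spread (SE 0.18, adjusted p = 0.154).

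The other 17 KDM genes did not pass the test. Kdm1b, a flavin-dependent demethylase of histone H3 known for its part in oocytes, showed the largest positive value of the family (7.44, 7.27 and 7.34 in Sox17-GOF islets, against 7.05, 7.06 and 7.04 in control islets). Its groups did not overlap (log2 fold change 0.30, SE 0.08, adjusted p = 0.0734). Its paralogue Kdm1a, known as LSD1 and a part of the CoREST complex, had a log2 fold change of 0.10. Kdm5a, which removes the H3K4 marks of active promoters, was at 9.30, 9.16 and 9.14 in Sox17-GOF islets, against 9.50, 9.45 and 9.28 in control islets (log2 fold change -0.21, adjusted p = 0.268). Kdm2a, Kdm4a and Kdm5c had log2 fold changes of -0.18, -0.18 and -0.20, each with every Sox17-GOF array below every control array and with adjusted p of 0.253, 0.249 and 0.186. Kdm4b, Kdm2b, Kdm4d and Kdm5b had log2 fold changes of -0.11, -0.09, -0.07 and -0.06, and Kdm6b and Kdm8 of 0.10 each. Kdm3a, Kdm3b, Kdm4c and the H3K27 demethylase Kdm6a were at -0.02, -0.02, 0.01 and -0.03. Kdm5d, the Y-linked paralogue of Kdm5c, had a log2 fold change of 0.10 and was at 8.28, 8.18 and 8.04 in Sox17-GOF islets, against 8.10, 8.29 and 7.80 in control islets, while the log2 signal of Xist lay between 4.56 and 4.74 on all arrays, close to 4.63, the 20th percentile of all values.

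Dnmt3a, which sets new methylation on DNA, read 8.90, 8.91 and 8.91 in Sox17-GOF islets, against 9.43, 9.18 and 9.33 in control islets. The Sox17-GOF arrays hardly differed, and all lay below the controls. Dnmt3a was 1.32-fold lower (log2 fold change -0.40, SE 0.09, 95% interval -0.60 to -0.20, adjusted p = 0.0410 by limma). No set of 5 arrays kept this call (adjusted p from 0.0613 to 0.133). It was also lost with median centring (0.0640) and with quantile normalization (0.0600). The antisense RNA Dnmt3aos was at 6.66, 6.59 and 6.86 in Sox17-GOF islets, against 6.82, 6.86 and 6.98 in control islets, with overlap (log2 fold change -0.18, 95% interval -0.41 to 0.04).

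Dnmt3b, the other de novo enzyme, was at 6.29, 6.19 and 6.22 in Sox17-GOF islets, against 6.29, 6.41 and 6.37 in control islets (log2 fold change -0.13). Dnmt3l, a cofactor without catalytic activity, was at 4.83, 5.03 and 5.0 in Sox17-GOF islets, against 4.99, 5.09 and 5.04 in control islets, near the 20th percentile. Dnmt1, which copies methylation to new DNA strands, had a log2 fold change of 0.05 (95% interval -0.17 to 0.27). Tet2 was at 8.21, 8.17 and 8.17 in Sox17-GOF islets, against 8.33, 8.18 and 8.42 in control islets (log2 fold change -0.13). Tet1 spread over a wide range in both groups (9.72, 9.01 and 9.11, against 9.55, 9.39 and 8.86 in control islets), and the interval of its difference ran from -0.53 to 0.55. For Tet3 the probe sets went opposite ways. The brighter was at 6.90, 6.94 and 6.87 in Sox17-GOF islets, against 7.07, 7.06 and 6.98 in control islets (log2 fold change -0.13), and the other had a log2 fold change of 0.26 (SE 0.135).

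The sequences at the starts of the 3 genes that passed are shown because these genes moved in the same direction. They run from 250 bases before to 50 bases after the start in RefSeq on the GRCm38.p6 build. Promoters of this kind were at hand for 66 of the 81 genes (96 in all). SOX proteins bind short sequences with the core ACAAT. The longer form AACAAT, read on both strands (ATTGTT on the other), occurred in 11.5% of these 96 promoters and in 10.7% of all 32851 promoters of the same length. None of the promoters of Hdac6, Kdm7a and Dnmt3a held it, nor the shorter ACAAT, which lies within AACAAT and which 28.1% of the 96 and 31.0% of all promoters held. Genes that held AACAAT were Hdac9, Kat2b, Kat7, Kdm2b, Kdm3a, Kmt5b, Prdm13, Setd5 and Sirt6. Capitals mark the GC box GGGCGG, or CCGCCC on the other strand, which SP family factors bind, and which 60.4% of the 96 promoters held, against 35.7% of all promoters.
Hdac6, chrX:7947840-7948139, minus strand: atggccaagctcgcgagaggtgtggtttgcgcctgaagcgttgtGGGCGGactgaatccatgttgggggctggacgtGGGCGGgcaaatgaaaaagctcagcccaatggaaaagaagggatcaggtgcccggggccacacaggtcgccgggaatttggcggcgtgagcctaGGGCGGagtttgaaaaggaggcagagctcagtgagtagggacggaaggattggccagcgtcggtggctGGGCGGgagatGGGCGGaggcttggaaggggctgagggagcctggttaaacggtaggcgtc
Kdm7a, chr6:39206724-39207023, minus strand: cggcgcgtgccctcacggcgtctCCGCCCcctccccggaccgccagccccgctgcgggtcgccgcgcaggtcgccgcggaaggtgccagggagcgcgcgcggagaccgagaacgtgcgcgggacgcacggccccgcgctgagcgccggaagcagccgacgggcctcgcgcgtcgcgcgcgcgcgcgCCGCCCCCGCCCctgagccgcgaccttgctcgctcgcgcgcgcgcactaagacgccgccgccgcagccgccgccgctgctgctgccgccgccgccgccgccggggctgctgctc
Dnmt3a, chr12:3806730-3807029, plus strand: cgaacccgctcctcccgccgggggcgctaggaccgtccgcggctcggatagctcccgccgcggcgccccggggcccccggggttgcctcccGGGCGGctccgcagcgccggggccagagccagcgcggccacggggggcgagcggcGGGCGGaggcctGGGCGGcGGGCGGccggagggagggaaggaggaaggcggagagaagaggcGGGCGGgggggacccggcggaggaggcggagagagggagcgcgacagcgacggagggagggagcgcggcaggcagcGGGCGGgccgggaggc

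The Hdac6 promoter held 5 GC boxes and 20 CpG dinucleotides, that of Kdm7a 3 and 65, and this start of Dnmt3a, 1 of 3 in RefSeq, 6 and 46. Their GC content was 62.0%, 82.7% and 82.3%. Median GC content was 61.5% in the promoters of the genes examined and 52.7% in all promoters. The windows show letters only, and binding was not measured in these islets.

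Of the 5 KMT2 genes 4 had negative values, but none passed the test. KMT2 proteins are the catalytic subunits of the complexes that methylate H3K4 at promoters and enhancers. Kmt2c was at 9.21, 9.04 and 9.01 in Sox17-GOF islets, against 9.53, 9.52 and 9.34 in control islets (log2 fold change -0.38, SE 0.09, 95% interval -0.59 to -0.16, adjusted p = 0.0644 by limma). Kmt2a was at 9.55, 9.47 and 9.69 in Sox17-GOF islets, against 10.02, 9.95 and 9.84 in control islets (log2 fold change -0.37, SE 0.09, 95% interval -0.58 to -0.16, adjusted p = 0.0644). Kmt2b was at 7.17, 6.99 and 6.96 in Sox17-GOF islets, against 7.37, 7.28 and 7.30 in control islets (log2 fold change -0.28, SE 0.08, adjusted p = 0.123). For these 3 of the 5 genes (60%, against 14.2% of all genes) no Sox17-GOF array reached the level of any control array. Kmt2d had a log2 fold change of -0.16 on both of its probe sets, and Kmt2e, which lacks methyltransferase activity, one of 0.01. With array weights, Kmt2a and Kmt2c passed (adjusted p = 0.0399 and 0.0449).

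**Figure D2:**
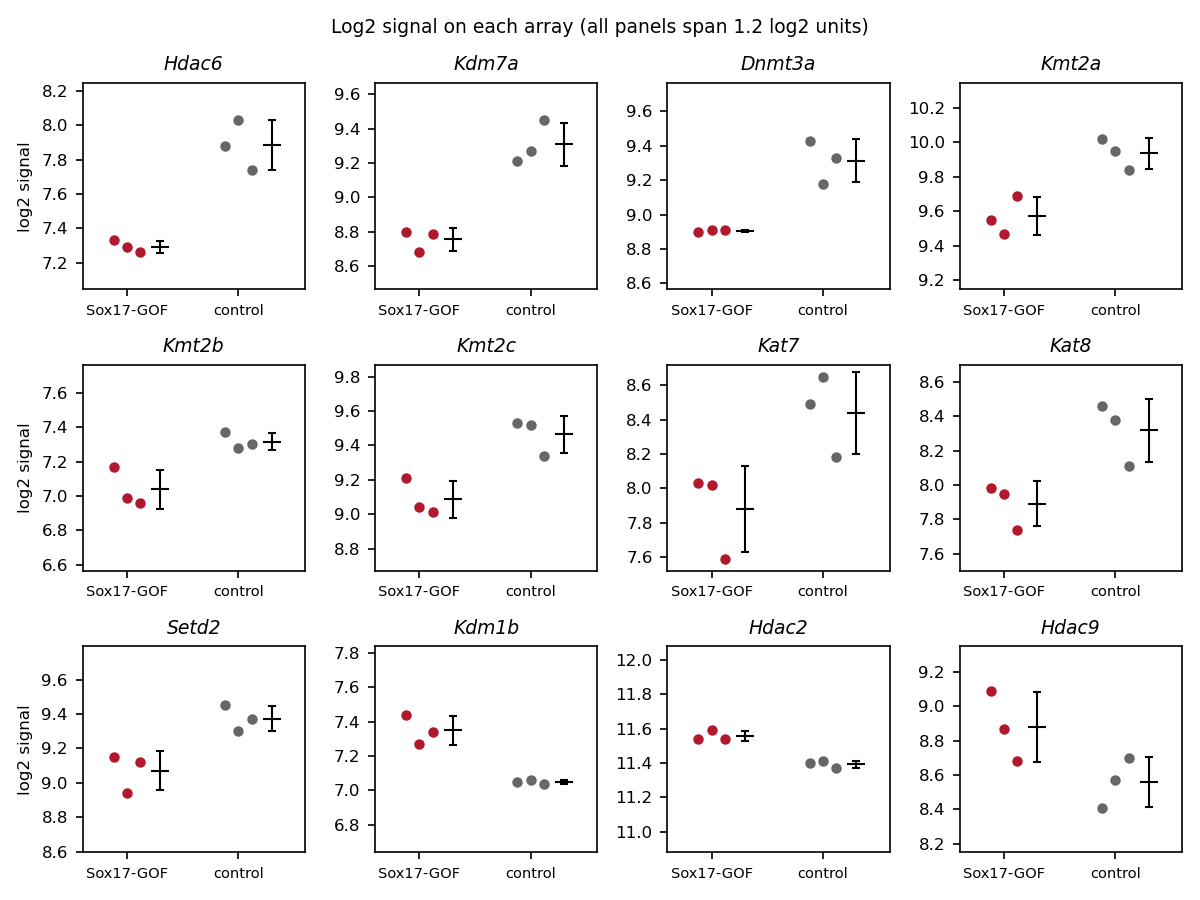
Log2 signal of 12 of the genes on each array, with Sox17-GOF islets (red, 3 arrays) left of control islets (grey, 3 arrays) and the mean and SD of each group beside the points. Each panel spans the same range of 1.2 log2 units, and the groups are apart in every panel but that of Hdac9, where Sox17-GOF replicate 3 lies below the highest control. The panels are a selection that favours such genes. Among all 81 genes the groups were apart for 27 and overlapped for 54, while 25.5% of all genes had groups apart.

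Acetyltransferases of the MYST family include Kat5, Kat6a, Kat6b, Kat7 and Kat8. Kat7, known as HBO1, acts at replication origins and gene bodies and was at 8.03, 8.02 and 7.59 in Sox17-GOF islets, against 8.49, 8.65 and 8.18 in control islets. The groups did not overlap, but replicate 3 was the lowest array of both, and the log2 fold change of -0.56 did not pass (SE 0.16, adjusted p = 0.101 by limma). Kat8, known as MOF, acetylates histone H4 and was at 7.98, 7.95 and 7.74 in Sox17-GOF islets, against 8.46, 8.38 and 8.11 in control islets (log2 fold change -0.43, SE 0.12, adjusted p = 0.0858). Kat6a was at 8.63, 8.54 and 8.93 in Sox17-GOF islets, against 9.01, 8.90 and 8.92 in control islets, with Sox17-GOF replicate 3 among the controls (log2 fold change -0.24). Kat6b, Kat5, Kat2a and Kat2b had log2 fold changes of -0.05, 0.04, -0.04 and -0.13, the last 2 of them subunits of the SAGA and ATAC complexes.

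Of 13 KMT5 and SET-domain genes, none passed, 9 had negative values and 5 had every Sox17-GOF array below every control array (38.5%, against 14.2% of all genes). Kmt5a, which sets the first methyl group on a lysine of histone H4, was at 8.17, 8.17 and 8.56 in Sox17-GOF islets, against 8.77, 8.57 and 8.64 in control islets. Its log2 fold change was -0.36 (SE 0.12, adjusted p = 0.166 by limma), and without Sox17-GOF replicate 3, the array nearest the controls, it was -0.485 and passed (adjusted p = 0.0365). Setd2, which trimethylates H3K36 behind RNA polymerase, was at 9.15, 8.94 and 9.12 in Sox17-GOF islets, against 9.45, 9.30 and 9.37 in control islets (log2 fold change -0.30, SE 0.09, adjusted p = 0.107). Its second probe set gave -0.33 (adjusted p = 0.0804), and the mean of both passed (adjusted p = 0.0478). Setd5 had a log2 fold change of -0.23 (SE 0.08, adjusted p = 0.155). Setd3, a methyltransferase of actin, was at 11.87, 11.60 and 11.64 in Sox17-GOF islets, against 11.54, 11.50 and 11.38 in control islets, without overlap (log2 fold change 0.23, SE 0.10, adjusted p = 0.259), and a second probe set gave 0.36 (SE 0.13).

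The H3K4 methyltransferases Setd1a and Setd1b had log2 fold changes of -0.20 and -0.22 (-0.38 on a second Setd1b probe set, adjusted p = 0.190), and Setd7, known to be abundant in β cells, one of -0.15 (95% interval -0.37 to 0.08). Setdb1, which sets silencing marks on H3K9, and Setd6 stood at -0.16 and -0.19. Setdb2, Setd4, Kmt5b and Kmt5c had log2 fold changes of 0.10, 0.08, -0.04 and 0.01.

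**Figure D3:**
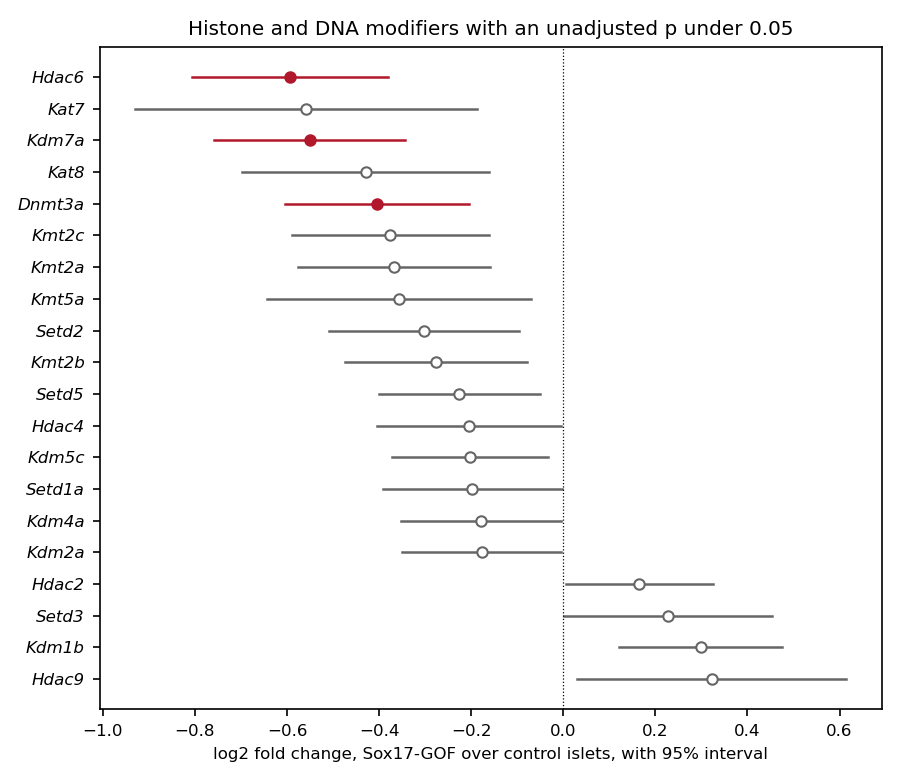
Log2 fold change in Sox17-GOF over control islets (point) and its 95% interval from limma (line) for the 20 genes with an unadjusted p under 0.05, filled red where the adjusted p is under 0.05. There are 16 genes below 0, and Hdac2, Setd3, Kdm1b and Hdac9 lie above it.

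No sirtuin passed, and none of the 7 had groups apart, while 25.5% of all genes did. Sirt4, a mitochondrial sirtuin that restrains glutamate dehydrogenase and insulin release in β cells, was at 7.27, 7.48 and 6.98 in Sox17-GOF islets, against 7.46, 7.63 and 7.50 in control islets (log2 fold change -0.29, 95% interval -0.59 to 0.02). Sirt7, a nucleolar sirtuin, was at 7.13, 6.62 and 6.83 in Sox17-GOF islets, against 7.29, 6.98 and 7.15 in control islets (log2 fold change -0.28, 95% interval -0.61 to 0.05). Sirt6, a chromatin deacetylase, was at 6.49, 6.30 and 6.58 in Sox17-GOF islets, against 6.33, 6.37 and 6.38 in control islets (log2 fold change 0.09). The other 4 lay near 0, with 0.05 for Sirt1, the nuclear sirtuin that acts on FOXO factors, -0.01 for the cytoplasmic Sirt2, and 0.02 and 0.01 for the mitochondrial Sirt3 and Sirt5.

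PRDM proteins carry a domain related to SET and mostly act as transcription factors of particular lineages. Of 12, each by its brightest probe set, none passed, also not at an unadjusted p under 0.05, which 19.7% of all genes passed. Prdm14, a factor of pluripotent and germ cells, was at 5.15, 5.43 and 5.14 in Sox17-GOF islets, against 5.30, 5.62 and 5.49 in control islets (log2 fold change -0.23, adjusted p = 0.347 by limma). Prdm15 was at 6.38, 6.42 and 6.46 in Sox17-GOF islets, against 6.68, 6.60 and 6.50 in control islets, and Prdm6 at 5.55, 5.59 and 5.71 in Sox17-GOF islets, against 5.83, 5.73 and 5.82 in control islets, both without overlap and both with a log2 fold change of -0.18. Prdm9, which places meiotic recombination, had -0.17, Prdm1, known as Blimp1, -0.13, Prdm4 -0.10 and Prdm16, a factor of brown fat, 0.10. Prdm8 had 0.10, Prdm10 0.04, Prdm11 0.02 and Prdm13 0.00. For Prdm2 the brightest probe set had a log2 fold change of 0.02. A second was at 8.24, 8.36 and 8.0 in Sox17-GOF islets, against 8.59, 8.68 and 8.48 in control islets, without overlap. Its log2 fold change was -0.38 (SE 0.11, unadjusted p = 0.00949 and adjusted p = 0.106 by limma).

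**Figure D4:**
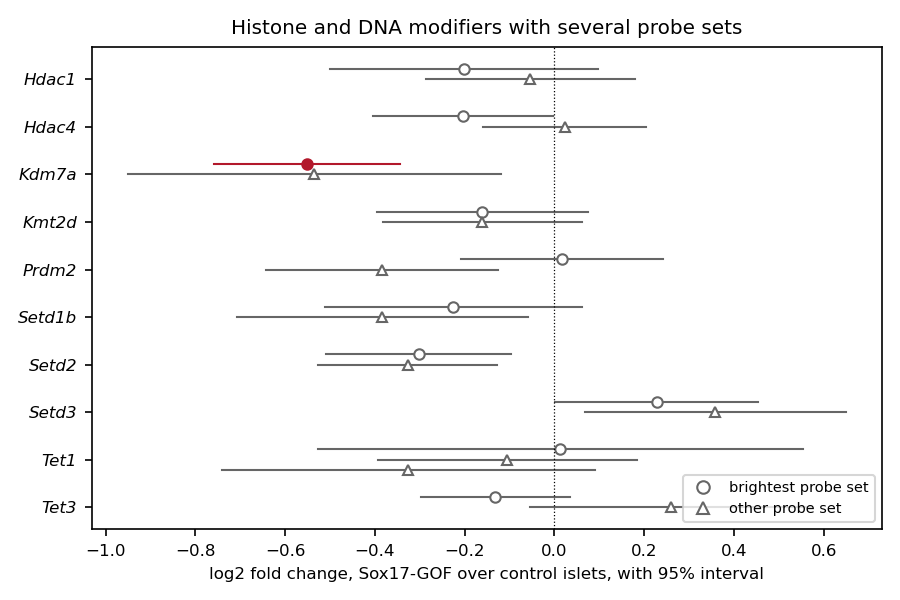
Log2 fold change in Sox17-GOF over control islets and its 95% interval from limma for each probe set of the 10 genes with several, with circles for the brightest probe set and triangles for the others. Filled red marks an adjusted p under 0.05. The probe sets of Kdm7a and of Setd2 lie close together, and those of Prdm2 and Tet3 lie apart.

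Across the arrays the 81 genes did not move as a block. The median of their differences from the control mean was -0.05, -0.10 and -0.08 on the 3 Sox17-GOF arrays, where 45, 59 and 51 genes lay below the control mean. On the control arrays it was 0.03, 0.01 and -0.02, with 33, 37 and 48 genes below that mean, so control replicate 3 had more such genes than Sox17-GOF replicate 1. The same median over all genes lay between -0.02 and 0.00 on every array. The KMT2 median was -0.23, -0.325 and -0.25 on the Sox17-GOF arrays, against 0.07, -0.02 and -0.095 on the control arrays. These values restate by array the log2 fold changes given above. The control arrays are part of the mean they are compared with, so their values lie around 0 by construction. Some genes followed single arrays instead, such as Hdac3 and Tet1, which were highest on Sox17-GOF replicate 1, and Setdb2, which was highest on replicate 3.

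**Figure D5:**
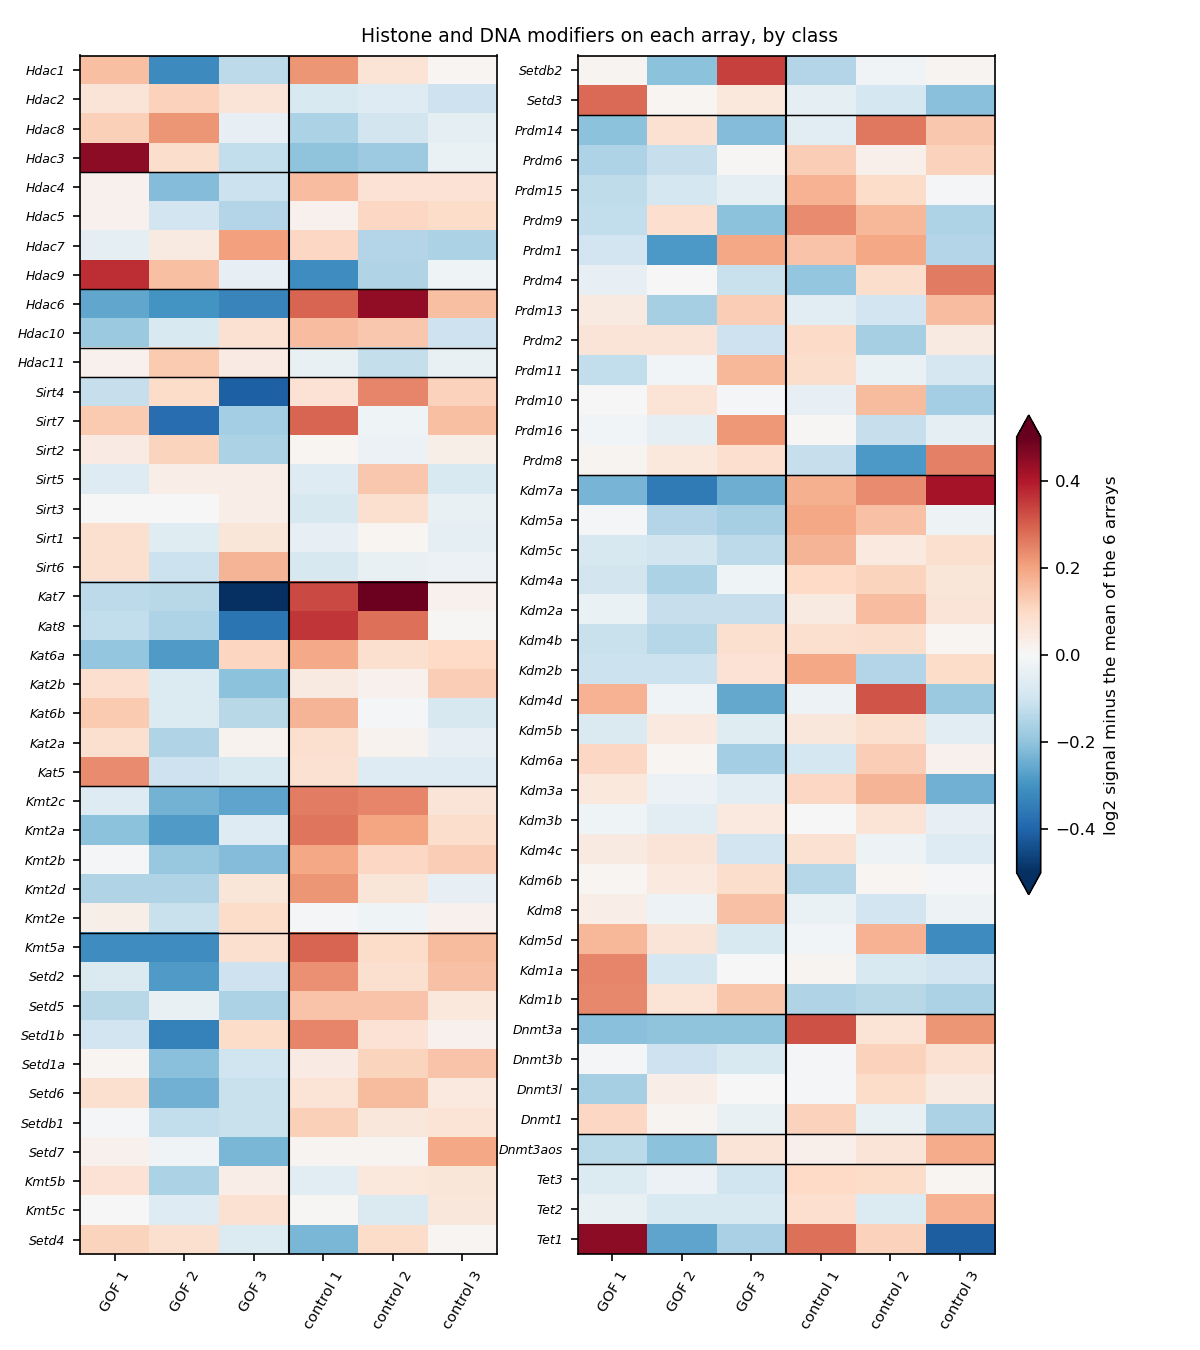
Log2 signal of each of the 81 genes (rows, grouped by class and parted by lines) on each array (columns, Sox17-GOF 1 to 3 left of control 1 to 3), as the difference from the gene's mean over the 6 arrays, with colours saturating at 0.5. Hdac6, Kdm7a, Dnmt3a and the upper rows of the KMT2 block lie below their mean (blue) on every Sox17-GOF array and above it (red) on every control array, while most other rows are mixed.

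Genes that work with these enzymes were looked up in 5 further lists. Of 29 measured genes on a list of partners in deacetylase complexes, which did not hold every subunit, none passed, with a median log2 fold change of -0.13 and values from -0.36 to 0.23. At an unadjusted p under 0.05 there were 7 (17.2% of the list lower and 6.9% higher, against 10.7% and 8.93% of all genes). A list of 22 measured genes held other acetyltransferases, subunits of their complexes and readers of histone marks. Of these, 2 were higher and 2 were lower (18.2% together, against 5.21% of all genes), with a median of -0.08. Hat1, which acetylates newly made histone H4, was at 9.15, 9.11 and 8.82 in Sox17-GOF islets, against 8.14, 8.07 and 8.13 in control islets. The groups stood far apart, with a log2 fold change of 0.91 (SE 0.10, adjusted p = 0.00410 by limma). Ing2, which reads H3K4 methylation and is itself a subunit of the SIN3 deacetylase complex, though not on that list, was at 10.16, 10.06 and 9.98 in Sox17-GOF islets, against 10.70, 10.66 and 11.02 in control islets (log2 fold change -0.73, SE 0.11, adjusted p = 0.0140). Ncoa3, a nuclear receptor co-activator, had a log2 fold change of -0.51 (adjusted p = 0.0325), and Trrap, the scaffold of the TIP60 and SAGA complexes, one of 0.37 (adjusted p = 0.0481). The call of Trrap ended without any 1 array (adjusted p up to 0.163) and that of Ncoa3 without any but Sox17-GOF replicate 3 (up to 0.106). Those of Hat1 and Ing2 held in every set of 5 arrays. Ep300, a co-activator, had a log2 fold change of -0.34 (adjusted p = 0.0528) and its paralogue Crebbp of -0.08.

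Of 27 other lysine and arginine methyltransferases and their partners, 1 was higher and 1 lower (7.41% together, against 5.21% of all genes), with a median of -0.06. Prmt8, an arginine methyltransferase of neurons, was at 6.19, 6.10 and 5.57 in Sox17-GOF islets, against 4.62, 4.65 and 4.76 in control islets, where it lay close to the 20th percentile (log2 fold change 1.28, SE 0.16, adjusted p = 0.00594 by limma). Paxip1, known as PTIP and a subunit of the complexes of KMT2C and KMT2D, was at 8.20, 8.23 and 8.05 in Sox17-GOF islets, against 8.92, 8.97 and 9.06 in control islets (log2 fold change -0.82, SE 0.08, adjusted p = 0.00303). Both calls held in every set of 5 arrays. Of 14 other demethylases and JmjC proteins none passed, with a median of -0.16 (6 at an unadjusted p under 0.05, all lower, 42.9% against 10.7% of all genes). Of 19 partners and readers of DNA methylation 1 was lower (5.26%, against 2.44% of all genes), with a median of -0.02. At an unadjusted p under 0.05 there were 12, with 7 lower (36.8%, against 10.7% of all genes) and 5 higher (26.3%, against 8.93%). The 1 that passed was Idh2, which encodes a mitochondrial enzyme that makes 2-oxoglutarate (9.52, 9.20 and 9.30 in Sox17-GOF islets, against 9.98, 9.90 and 9.97 in control islets). Its log2 fold change was -0.61 (SE 0.10, adjusted p = 0.0150), and leaving out a control array, whichever it was, ended the call (adjusted p up to 0.0660). Idh1, on the same list, went the other way without passing (log2 fold change 0.45, SE 0.13, adjusted p = 0.0984 by limma). Every Sox17-GOF array lay above every control array for Idh1.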

How the data were processed

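The deposited values are log2 signals that the authors made by RMA, which corrects background, equalizes the distributions of the arrays and summarizes each probe set. The methods name GeneSpring 10.1 and the submitters' processing notes Affymetrix Expression Console, and which of them made the values is not settled. Genes were named from the platform annotation. Of 34760 probe sets, 22961 had a symbol and the other 11799 were not tested. They were compared with limma 3.58.1 in R 4.3.3 (Sox17-GOF minus control, equal weights, no trend), with Benjamini-Hochberg adjustment across the 22961 and a threshold of 0.05. Each gene is represented by its brightest single-symbol probe set. Signals were not compared between genes, and the number of arrays limits the precision.

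The genes, classes and lists were chosen with earlier results of these data known. Genes are named if they passed, had 1 of the 3 largest changes of their class, or were Hdac6 or Sox17. Up to 4 changed genes of each further list are also named, and every other gene of the 81 is given by its value. Atat1, Cttn, Plaa, Ep300, Crebbp, Uhrf1, Hells, Idh1, Xist and the cell type markers named were added after their values were seen. Alternatives changed the fit (intensity trend, array weights, replicate block), the scaling (median centring, quantile normalization), the features (every probe set of the table, no dim probe sets, averaged probe sets per gene), the test (the methods' t-test and thresholds) and the arrays (each left out in turn). On simulated arrays, limma called 33 of 100 probe sets shifted by 0.5 (log2), 76 of 100 shifted by 1, and 8 of 22761 left as they were. These arrays had independent noise, with spreads shuffled among probe sets, and fewer shifted probe sets than the 1133 that passed here. The shares called need not hold for the real arrays.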

Additional observations from a re-analysis of the deposited data

How the results depend on the processing

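Each of the 3 calls was lower in Sox17-GOF islets under every alternative run. With array weights 5 of the 81 genes passed, Kmt2a and Kmt2c besides the 3. At the methods' thresholds, 1.3-fold with an unadjusted p, 5 passed, Kat7 and Kat8 besides the 3. The methods' t-test after Benjamini-Hochberg called 0 of the 81 (21 at an unadjusted p under 0.05) and 71 probe sets in all, against 1133 by limma, and gave Hdac6 (log2 fold change -0.59) an adjusted p = 0.102 and Sox17 (0.67) an adjusted p = 0.0906. With arrays left out in turn the count of genes was 0 to 3, that of probe sets 385 to 1020, the log2 fold change of Hdac6 -0.67 to -0.52 and that of Sox17 0.59 to 0.71. With all probe sets tested, 558 passed, with Hdac6 and Kdm7a among them.

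With the replicate block, 720 probe sets and 3 of the 81 genes passed, Kat7 in place of Dnmt3a (adjusted p = 0.0347 and 0.0849). Same-numbered arrays did not deviate together (correlations 0.05, -0.02 and -0.04), so the numbers were not taken as pairs.

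Tet1 turned to -0.059 with array weights, -0.19 without control replicate 3, -0.21 without Sox17-GOF replicate 1 (-0.21 to 0.156 over all sets of 5 arrays) and -0.14 as the mean of its probe sets, and Tet3 turned to 0.064 as the mean of its probe sets. Over the sets of 5 arrays, 24 of the 81 genes changed sign at least once, Tet1 among them. With all 6 arrays their log2 fold changes lay between -0.07 and 0.10, and none had passed, so the signs printed for genes that near 0 carry no direction. The cause of these shifts was not tested. The median SE of the 81 log2 fold changes was 0.09 with 3 arrays against 3, so a gene that did not pass may still differ.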

Other observations

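Of 9 measured proliferation markers, 1 was higher in Sox17-GOF islets (11.1%, against 2.77% of all genes) and none was lower, with a median log2 fold change of 0.41. Cdk1, the mitotic kinase, was at 7.05, 8.0 and 7.51 in Sox17-GOF islets, against 6.55, 6.47 and 6.54 in control islets (log2 fold change 0.99, SE 0.21, adjusted p = 0.0405 by limma). Sox17-GOF replicate 2 was the highest, and leaving out Sox17-GOF replicate 3 or a control array ended the call (adjusted p up to 0.142). The mean log2 signal of the list was 6.81, 7.47 and 6.93 on the Sox17-GOF arrays and 6.62 to 6.69 on the control arrays. Dnmt1, which dividing cells also use, had a log2 fold change of 0.05, and its partner Uhrf1 one of -0.09 (SE 0.14). Hells, on the list of DNA methylation partners, had one of 0.59 and did not pass (SE 0.16, adjusted p = 0.0807 by limma). Every Sox17-GOF array lay above every control array for Hells.

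The list mean of acinar markers ran from 10.81 to 11.77 on Sox17-GOF arrays and from 11.39 to 11.69 on control arrays. Of the 12 genes 1 was lower, Bhlha15 (log2 fold change -0.64, adjusted p = 0.0312 by limma), and only the sets of 5 arrays without Sox17-GOF replicate 2 or 3 kept its call (adjusted p up to 0.116). The list mean of endothelial markers ran from 7.61 to 7.73 on Sox17-GOF arrays and from 7.70 to 7.76 on control arrays. The median log2 fold change of these markers was 0.04, with 7 values above 0 and 5 below. Pecam1 had the log2 fold change 0.37 and did not pass (adjusted p = 0.110 by limma). Of the 12 genes 1 was lower, Kdr, at 8.15, 7.90 and 7.87 in Sox17-GOF islets, against 8.61, 8.53 and 8.81 in control islets, and its call was lost when Sox17-GOF replicate 2 was left out and also without control replicates 1 or 3 (adjusted p up to 0.0599). The list mean of leukocyte markers ran from 6.43 to 6.71 on Sox17-GOF arrays and from 6.39 to 6.82 on control arrays. Of the 11 genes 1 was lower, Cd79a, at 5.97, 5.78 and 5.95 in Sox17-GOF islets, against 6.53, 6.38 and 6.41 in control islets, and its call was kept only without Sox17-GOF replicate 1 or 3 (adjusted p up to 0.0665). The single calls were 8.33%, 8.33% and 9.09% of the acinar, endothelial and leukocyte lists, while 2.44% of all genes were lower.

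Of 6 Schwann and glial markers 1 was higher, Pmp22, at 10.21, 9.59 and 9.87 in Sox17-GOF islets, against 7.97, 7.79 and 7.45 in control islets (log2 fold change 2.15, SE 0.18, adjusted p = 0.00147 by limma), and the call held in every set of 5 arrays. The median log2 fold change of these 6 markers was 0.09, and the 1 call was 16.7% of them, against 2.77% of all genes. None of the 9 markers of α, δ and PP cells, the 7 of duct or the 9 of stellate cells and fibroblasts passed. Their median log2 fold changes were -0.08, 0.21 and 0.34. All 9 stellate and fibroblast markers had positive values, and for 4 every Sox17-GOF array lay above every control array (44.4%, against 11.3% of all genes).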
